A study of Rattus norvegicus with 27 samples.

Results

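Primary rat Schwann cells, the glia of peripheral nerves, lost most of the transcript of 35 genes under dibutyryl cyclic AMP (dbcAMP) and had it back after dbcAMP was withdrawn. The 35 genes were found by a rule on stage means in cell mRNA, out of 17315 genes in the table. Each count was divided by its library's total and multiplied by 1000000 (CPM), and a stage level was log2(mean CPM of 3 libraries + 1). A gene was kept when its level in differentiated cells lay at least 2.5 log2 units below undifferentiated cells and its level after withdrawal lay at most 0.5 below. The table held 189 genes with such a fall, 1.09% of its rows, and 153 of them stayed more than 0.5 lower after withdrawal. Of the remaining 36 genes, 19.0% of the 189, Jun was left out by the rule. All 3 stage means chose the genes, so their levels by stage are described here without a test.

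The cells were bought, and used at passages 3 to 5. Undifferentiated cells were kept without dbcAMP, in a medium that the labels do not otherwise state. Differentiated cells had 1 mM dbcAMP for 72 h in medium with 1% fetal bovine serum (FBS). Dedifferentiated cells had the same treatment and then 72 h in a complete medium with 10% FBS, forskolin and 10 ng/mL neuregulin. The absence of dbcAMP, the serum and the added factors therefore changed together after withdrawal, and their parts in the return cannot be told apart. Because the medium of undifferentiated cells is not stated, the parts of dbcAMP and of the medium with 1% FBS in the fall cannot be told apart either. Below, under dbcAMP names the differentiated stage. Each stage had 3 libraries that the titles call biological replicates, and the labels do not say whether these came from separate lots or animals. MicroRNAs (miRNAs) and long non-coding RNAs of small extracellular vesicles (EVs) were sequenced from the same 3 stages, again with 3 libraries each.

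Cyclic AMP activates protein kinase A, which phosphorylates the transcription factor CREB and, in cultured Schwann cells, is a common means of inducing a myelinating state. Differentiated Schwann cells can return to an immature or repair-type state after nerve injury, when axonal signals are lost, with changes in transcription factors, growth factors, adhesion proteins and the cytoskeleton. Forskolin, which was part of the medium after withdrawal, activates adenylyl cyclase and so also raises cyclic AMP.

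The cell mRNA libraries held 10058735 to 16212278 counts, and 3 counts corresponded to 0.185 to 0.298 CPM. Of 10 fixed Schwann markers, 9 were in the table, and their summed level was 8708 to 9735 CPM in undifferentiated, 8940 to 11770 in differentiated and 19650 to 22380 in dedifferentiated cells. Sox10, which defines the lineage, was between 963.5 and 1539 CPM in every library. A fibroblast list summed to 24410 to 29130, 12010 to 15680 and 16050 to 19580 CPM in the same order of stages. Almost all of it was Col1a1 and Col1a2. In this list Dcn, Lum, Pdgfra, Dpt and Tcf21 were under 1 CPM in every library, and Lum and Tcf21 at 0. Mfap5 fell and came back, at 2.26 to 9.33, 0.442 to 1.42 and 2.37 to 11.4 CPM. Its fall was 2.04 log2 units on the scale of the rule, short of 2.5. Col3a1 rose instead, at 39.5 to 64.7, 88.9 to 94.9 and 103.9 to 225.5 CPM, and Thy1 reached at most 1.92 CPM. Of 10 macrophage and leukocyte markers, 9 were under 1 CPM in every library and 4 at 0, with sums of at most 5.33 CPM. Endothelial sums reached 22.6 CPM and smooth muscle sums 14.8 CPM. In the smooth muscle list 5 of 8 genes were under 1 CPM throughout. The others had stage means of 3.16, 0.199 and 7.30 CPM (Acta2), 4.19, 3.91 and 3.35 (Myh11) and 1.05, 3.35 and 1.07 (Notch3). In a neuronal list 6 of 8 genes were under 1 CPM throughout, and its sum came from the neurofilament genes Nefl and Nefm, at 190.2 to 516 CPM in undifferentiated, 1433 to 1939 in differentiated and 354 to 462 in dedifferentiated cells. Part of these movements in the levels below was not tested. In bulk RNA, fewer cells that express a gene and less RNA per cell cannot be told apart.

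Among the 35 genes the fall ranged from 2.52 to 4.37 log2 units with a median of 2.92, against a median of -0.04 over the 13417 genes with a count. The mean CPM in differentiated cells had a median of 10.4% of the undifferentiated mean and was 15.9% at the most. After withdrawal the mean CPM stood at 67.3% to 142.1% of the undifferentiated mean, with a median of 90.8%. It was above the undifferentiated mean for 10 genes and below it for 25. For all 35 genes every undifferentiated and every dedifferentiated library lay above every differentiated one, which held for 27.4% and 28.3% of the 10372 genes that passed the filter on low counts. All 35 genes passed that filter, and because the rule used these contrasts nothing is read from the difference in shares. Undifferentiated and dedifferentiated libraries overlapped for 26 genes. They lay apart with the undifferentiated ones higher for 8 genes (17.1% of all genes tested) and with the dedifferentiated ones higher for 1 gene, Sox9 (26.8%).

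**Figure D1:**
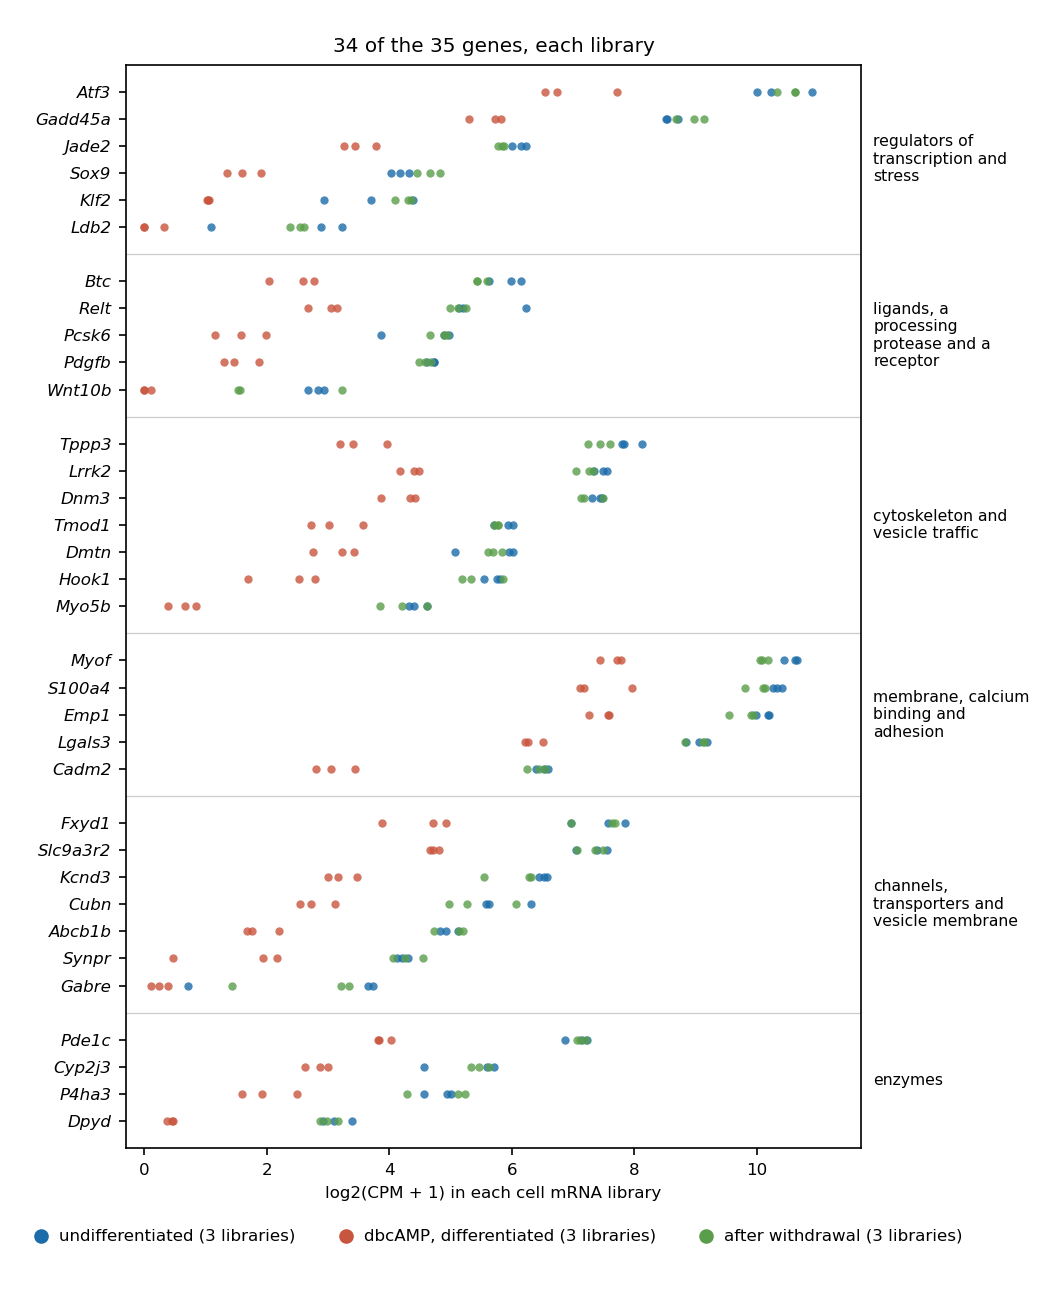
Levels of 34 of the 35 genes as log2(CPM + 1), with 1 point for each of 9 cell mRNA libraries, coloured by stage, and genes grouped by function. In every row the 3 differentiated points lie left of the other 6, and for 25 of these genes the undifferentiated and dedifferentiated points overlap.

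**Figure D2:**
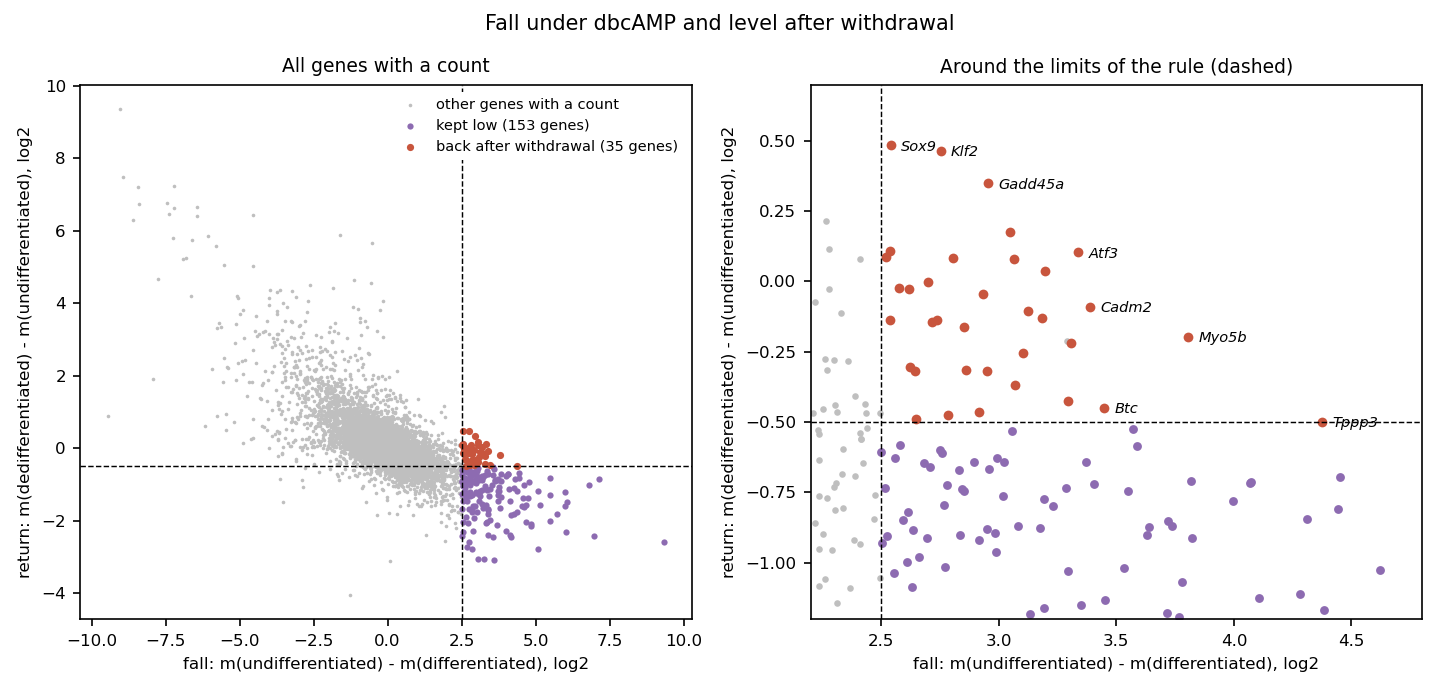
Each gene with a count is placed by its fall under dbcAMP (horizontal axis, log2) and by its level after withdrawal relative to undifferentiated cells (vertical axis, log2). The left panel shows all genes and the right panel the area around the dashed limits of 2.5 and -0.5, where the 35 genes are red, the 153 that stayed low are purple, and Tppp3 lies furthest right among the 35.

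The limits of the rule cut through a continuous spread. Synpr (2.52), Cyp2j3 (2.54) and Ldb2 (2.54) had the smallest falls among the 35, and Tktl1 (2.49), Nkd2 (2.44) and S100a11 (2.43) had falls just too small, each with a small enough deficit after withdrawal. Tppp3 (0.50), Relt (0.49) and Wnt10b (0.48) had the largest deficits among the 35, and Gpc1 (0.53), Adgrl2 (0.53) and Stmn4 (0.58) had deficits just too large. By textbook function the 35 genes were sorted, after their names were known, into 6 groups. CPM values are not divided by gene length, so they compare stages of 1 gene and not genes with each other. The values of 3 libraries are given in the order of replicates 1, 2 and 3, which has no meaning as a series.

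Regulators of transcription and of the stress response made up 7 of the 35 genes. Their falls ran from 2.54 to 3.34 log2 units, and their return from 80.7% to 142.1% of the undifferentiated mean. Atf3, a transcription factor of the ATF/CREB family that injury and stress induce, had 1909, 1029.7 and 1199 CPM in undifferentiated cells, 92.0, 209 and 106 under dbcAMP and 1289.7, 1579.6 and 1575 after withdrawal. Its mean fell 10.2-fold and came back to 107.4%, with replicate 1 of the undifferentiated cells above all 3 dedifferentiated libraries and the other replicates below them. Gadd45a, a small protein of growth arrest and DNA damage responses, had 419, 371 and 365 CPM, then 55.8, 52.1 and 38.5, then 410.5, 559.7 and 501. It ended at 127.4% of its starting mean, although 1 dedifferentiated library was within the undifferentiated range.

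Sox9, a neural crest factor of the SoxE family to which Sox10 belongs, went from 15.2, 17.0 and 18.9 CPM to 2.73, 1.54 and 2.04 and then to 27.5, 20.9 and 24.4. It was the single gene of the 35 whose dedifferentiated libraries all exceeded the undifferentiated ones, with a mean of 24.2 ± 3.30 CPM (SD, n = 3) against 17.1 ± 1.84. Klf2, a zinc finger factor of the Krüppel-like family, had 19.9, 6.63 and 12.0 CPM before, 1.03, 1.08 and 1.05 during and 18.7, 19.4 and 16.1 after dbcAMP. Its return to 140.8% of the starting mean came with an undifferentiated SD of 6.68 CPM on a mean of 12.8, and the groups overlapped.

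Jade2, which serves in histone acetyltransferase complexes, had 70.0, 63.0 and 74.4 CPM, then 12.7, 9.88 and 8.57, then 53.7, 57.6 and 56.1. Its dedifferentiated libraries stayed below all undifferentiated ones, at 80.7% of their mean. Ldb2, a cofactor of LIM domain proteins, was sparse, with 1.13, 8.36 and 6.35 CPM in undifferentiated cells, 0, 0 and 0.247 in differentiated cells and 4.83, 4.18 and 5.11 after withdrawal. Replicate 1 of the undifferentiated cells stood far below the other replicates, so the undifferentiated level of Ldb2 was poorly fixed.

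The closest relatives of these regulators were listed by family after the 35 names were known, and none is a gene of the rule, so edgeR's quasi-likelihood test applies to them. In differentiated against undifferentiated cells, 27.9% of the 10372 genes tested were called lower and 31.7% higher at an adjusted p under 0.05. Over all 35 genes, 58 relatives of 29 of them were tested. Of these, 30 were lower, 14 higher and 14 not called, with a median log2 change of -0.43 against 0.05 over all other genes tested. In dedifferentiated against differentiated cells 31 of the 58 were called higher and 6 lower, while 23.2% of all genes tested were higher and 23.2% lower. Between dedifferentiated and undifferentiated cells 14 were called lower and 14 higher, beside 13.3% and 16.1% of all genes. Of the 58, 5 met the limit on the fall and were kept out of the 35 by their deficit alone. Nothing is therefore read from the number called lower between these outer stages. The relatives named here and below were picked after their values were seen. Gadd45b fell by 1.54 log2 units (SE 0.14, edgeR adjusted p = 4.15e-06) and Jade1 by 2.74 (SE 0.17, adjusted p = 2.48e-07), in the direction of Gadd45a and Jade2. In the SoxE family, where the mean of Sox9 fell 8.11-fold, Sox8 fell by 2.12 log2 units (SE 0.49, edgeR adjusted p = 0.0033) and Sox10 by 0.42 (SE 0.11, adjusted p = 0.00665). Sox8 then rose by 1.29 after withdrawal (SE 0.48, edgeR adjusted p = 0.0477), a call that was lost with DESeq2 (adjusted p = 0.0744). It was also lost without undifferentiated replicate 3, differentiated replicate 2 or 3, or any 1 dedifferentiated library (edgeR adjusted p = 0.0571 to 0.132).

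**Figure D3:**
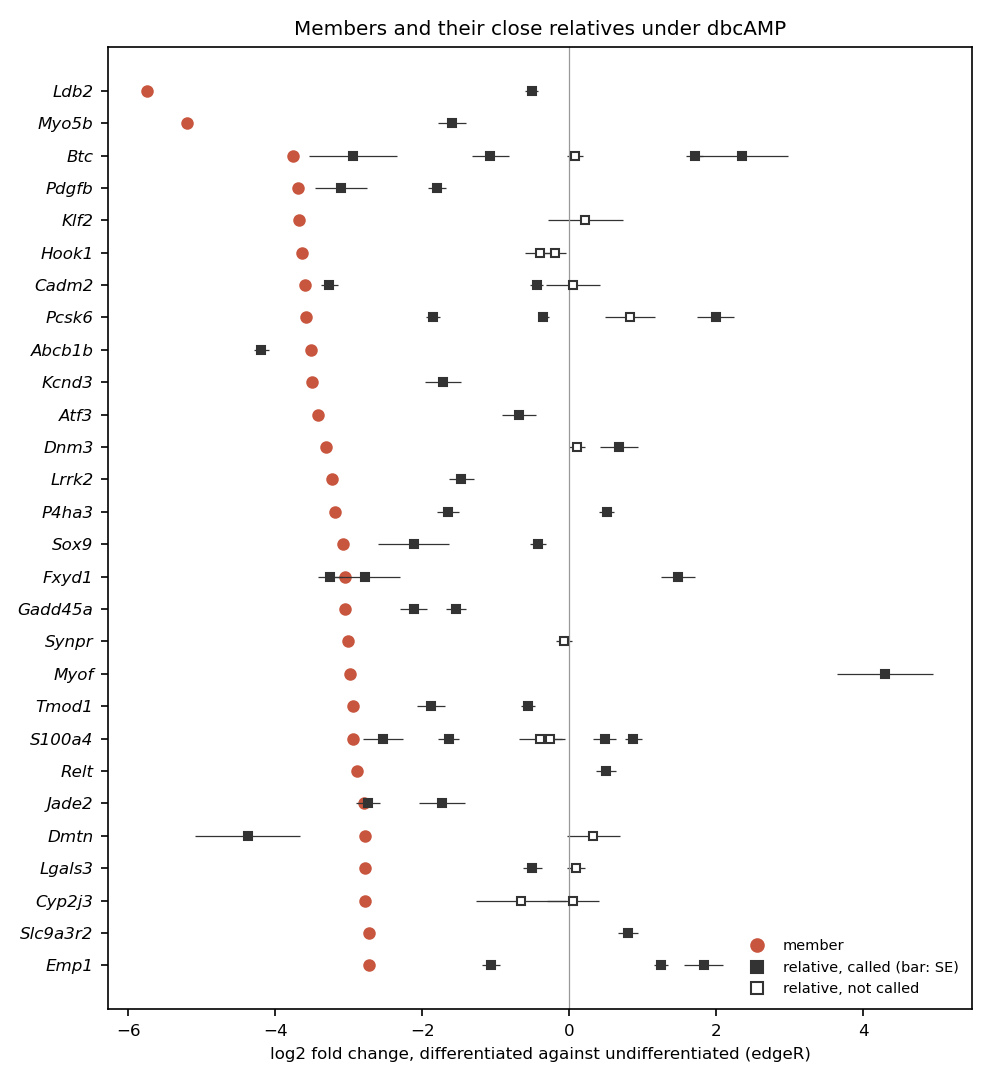
Log2 fold change in differentiated against undifferentiated cells for 28 of the 35 genes (red circles, a description since the rule used this contrast) and their 57 tested relatives (squares, with the SE as a bar). Filled squares passed an adjusted p under 0.05 in edgeR, 30 of them to the left of 0 and 13 to the right.

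Secreted ligands, a processing protease and a receptor made up 5 of the 35. Betacellulin (Btc), a ligand of the epidermal growth factor receptor and ErbB4, had 70.3, 48.6 and 62.6 CPM in undifferentiated cells, 5.82, 3.09 and 5.00 under dbcAMP and 42.3, 42.4 and 47.5 after withdrawal. Its fall of 13.1-fold was followed by a return to 72.8%, with every dedifferentiated library below every undifferentiated one. Pdgfb, the B chain of platelet-derived growth factor, had 23.5, 25.5 and 25.5 CPM, then 1.77, 1.47 and 2.65, then 21.4, 23.0 and 24.6. The return reached 92.7% and overlapped the undifferentiated range. Wnt10b, a Wnt ligand, had 6.12, 5.38 and 6.67 CPM in undifferentiated cells and a single count over all 3 differentiated libraries. After withdrawal it had 8.39, 1.89 and 1.96 CPM, so its return rested on replicate 1.

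Pcsk6, a proprotein convertase that cleaves precursors of secreted growth factors, had 13.5, 28.8 and 30.6 CPM, then 1.99, 1.23 and 2.96, then 24.2, 29.7 and 28.8. It ended at 113.5% of a starting mean that its low replicate 1 had pulled down. Relt, a receptor of the tumour necrosis factor receptor family, had 74.0, 35.9 and 34.1 CPM, then 7.81, 7.25 and 5.37, then 36.9, 30.8 and 33.9. Here replicate 1 of the undifferentiated cells was the high one, and the other replicates lay within the range seen after withdrawal.

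Other members of the same ligand and protease families went both ways. Pdgfa fell by 1.80 log2 units (SE 0.12, edgeR adjusted p = 6.03e-07) and Pdgfc by 3.11 (SE 0.36, adjusted p = 2.68e-05). Heparin-binding EGF (Hbegf), which shares receptors with betacellulin, rose by 1.71 (SE 0.12, edgeR adjusted p = 5.67e-07), from 18.3 to 23.7 CPM in undifferentiated to 64.5 to 77.2 CPM in differentiated libraries. Furin fell by 1.85 (SE 0.09, edgeR adjusted p = 5.3e-08), while Pcsk5 rose by 1.99 (SE 0.25, adjusted p = 5.94e-05).

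Genes of the cytoskeleton and of vesicle traffic made up another 7, with falls of 2.58 to 4.37 log2 units and returns of 70.7% to 98.3%. Tppp3, of the tubulin polymerization-promoting protein family, had 279, 223 and 228 CPM in undifferentiated cells, 8.18, 9.57 and 14.6 under dbcAMP and 151, 192 and 172 after withdrawal. Its 22.6-fold fall was the largest among the 35 on the scale of the rule, and at 70.7% it returned only just far enough to be kept. Myo5b, an actin motor that carries recycling endosomes, had 20.1, 23.6 and 19.0 CPM, then 0.589, 0.309 and 0.802, then 23.4, 13.3 and 17.5. It was the next largest fall on that scale, and its outer stages overlapped. Lrrk2, a large kinase and GTPase that acts on Rab proteins, had 161, 179 and 188 CPM, then 17.1, 20.2 and 21.3, then 159, 131 and 152. Its dedifferentiated libraries were all below the undifferentiated ones, with little space between the nearest values.

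Dnm3, a dynamin GTPase of membrane fission, had 176, 157 and 173 CPM, then 20.4, 13.5 and 19.1, then 179, 139 and 144. The dedifferentiated values spread on both sides of the undifferentiated ones. Tmod1, which caps the pointed ends of actin filaments, had 60.0, 51.1 and 63.6 CPM, then 5.60, 7.10 and 10.9, then 51.3, 53.8 and 53.5. Hook1, an adaptor that links cargo to microtubule motors, had 53.1, 55.0 and 45.9 CPM, then 5.89, 2.24 and 4.75, then 57.0, 35.6 and 39.4. All 3 dedifferentiated values of Tmod1 lay within its undifferentiated range, and those of Hook1 lay on both sides of its own. Dematin (Dmtn), an actin-bundling protein, had 32.6, 61.0 and 63.7 CPM, then 5.75, 9.72 and 8.39, then 56.4, 50.6 and 47.6. It stood at 98.3% after withdrawal, against an undifferentiated mean that replicate 1 held down. Among relatives, Myo5a fell by 1.60 log2 units (SE 0.19, edgeR adjusted p = 3.79e-05) and Lrrk1 by 1.47 (SE 0.17, adjusted p = 3.54e-05).

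Membrane, calcium-binding and adhesion proteins made up 5. Myoferlin (Myof), a ferlin of membrane repair and fusion, had 1387, 1603 and 1567 CPM in undifferentiated cells, 210.3, 172 and 219 under dbcAMP and 1159, 1056 and 1088 after withdrawal. S100a4, a calcium-binding protein that acts on non-muscle myosin, had 1363, 1279.6 and 1226 CPM, then 144, 137 and 249, then 896, 1099 and 1116. Emp1, an epithelial membrane protein of the Pmp22 family, had 1155, 1176 and 1012 CPM, then 152, 189 and 192, then 742, 975 and 960.4. All 3 genes fell 6.28- to 7.58-fold and returned to 72.5%, 80.4% and 80.1%, with every dedifferentiated library under every undifferentiated one.

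Galectin 3 (Lgals3), a beta-galactoside-binding lectin that Schwann cells and macrophages make after nerve injury, had 457, 579 and 533 CPM, then 73.4, 75.6 and 89.9, then 451, 558 and 559. It returned to 99.96% of its starting mean, with matching ranges on both sides. Cadm2, an immunoglobulin-type cell adhesion molecule, had 82.8, 90.9 and 95.6 CPM, then 7.29, 5.94 and 9.81, then 75.0, 86.0 and 91.7. Its fall of 3.39 log2 units was among the 5 largest of the set, and the return reached 93.9%.

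The relatives of these genes did not all move with them. Pmp22, a protein of compact myelin, rose by 1.83 log2 units (SE 0.27, edgeR adjusted p = 0.000152) from 463 to 942 CPM in undifferentiated to 2446 to 3628 CPM in differentiated libraries, and to 5194 to 7249 CPM after withdrawal. Emp2 rose by 1.25 (SE 0.10, edgeR adjusted p = 1.89e-06) and Emp3 fell by 1.06 (SE 0.12, adjusted p = 1.97e-05). Dysferlin (Dysf) rose by 4.30 (SE 0.65, edgeR adjusted p = 0.000213) from levels under 1 CPM. Cadm1 fell by 3.26 log2 units (SE 0.12, edgeR adjusted p = 5.83e-09), as Cadm2 did, and S100b, a Schwann lineage marker, rose by 0.87 (SE 0.11, adjusted p = 7.07e-05). S100a11 and S100a10 fell with S100a4, by 2.53 (SE 0.28, edgeR adjusted p = 1.94e-05) and 1.64 (SE 0.14, adjusted p = 3.08e-06).

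Channels, transporters and a vesicle membrane protein made up 7, with returns of 74.2% to 106.6%. Phospholemman (Fxyd1), a regulator of the sodium pump, had 124, 229 and 189 CPM in undifferentiated cells, 13.7, 25.1 and 29.5 under dbcAMP and 124, 204.5 and 197 after withdrawal. Replicate 1 was the low one at all 3 stages. Slc9a3r2, a scaffold of membrane transporters also called Nherf2, had 131, 187 and 167 CPM, then 27.0, 25.1 and 24.4, then 133, 179 and 163. The 2 outer stages covered the same range. Kcnd3, a voltage-gated potassium channel of the A type, had 85.7, 94.5 and 91.1 CPM, then 7.96, 6.95 and 10.1, then 45.9, 78.5 and 76.9. Its return to 74.2% was the lowest of this group, and no dedifferentiated library reached the undifferentiated range.

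Cubilin (Cubn), an endocytic receptor, had 78.5, 47.0 and 48.2 CPM, then 7.66, 5.56 and 4.81, then 65.9, 30.4 and 37.5. Replicate 1 was the highest at every stage. Synpr, a synaptic vesicle membrane protein, had 16.5, 18.7 and 17.4 CPM, then 3.46, 0.386 and 2.84, then 22.4, 15.6 and 18.1. Abcb1b, a multidrug efflux pump, had 27.4, 29.4 and 33.6 CPM, then 2.21, 2.39 and 3.58, then 25.4, 34.3 and 35.96. It was the single gene of the 35 with fractional counts, in 6 of its 9 values. It has a close relative, Abcb1a, with stage means of 0.241, 0 and 0.120 CPM. Read sharing between them was not tested, so the level of Abcb1b is uncertain. Its relative Abcb4 fell by 4.19 log2 units (SE 0.10, edgeR adjusted p = 1.82e-09) and rose again by 3.43 after withdrawal (adjusted p = 8.93e-09). Abcb4 stood at 61.0% of its undifferentiated mean after withdrawal. With a fall of 4.07 on the scale of the rule, it was kept out of the 35 by this deficit alone. The deficit is therefore described without a test. Gabre, the epsilon subunit of the GABA-A receptor, is described below with the miRNA that lies inside it.

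Enzymes made up the last 4. Pde1c, a calmodulin-dependent phosphodiesterase that breaks down cyclic AMP and cyclic GMP, had 116, 149 and 141 CPM in undifferentiated cells, 13.1, 13.2 and 15.2 under dbcAMP and 148, 132 and 137 after withdrawal. It fell 9.77-fold and returned to 102.7%, with the outer stages overlapping. Cyp2j3, a cytochrome P450 that acts on arachidonic acid, had 22.6, 51.2 and 47.3 CPM, then 5.16, 6.95 and 6.29, then 48.2, 43.3 and 39.2. P4ha3, a collagen prolyl hydroxylase subunit, had 22.8, 31.2 and 29.8 CPM, then 2.80, 2.01 and 4.63, then 18.5, 36.8 and 33.7. Both genes had their lowest undifferentiated library in replicate 1, as 19 of the 35 did. Dpyd, which begins the breakdown of pyrimidines, had 6.53, 7.595 and 9.49 CPM, then 0.295, 0.386 and 0.370, then 6.27, 6.86 and 7.97. In differentiated cells its level was close to what 3 counts can show. The relatives of P4ha3 split, since P4ha2 fell by 1.65 log2 units (SE 0.15, edgeR adjusted p = 6.18e-06) and P4ha1 rose by 0.51 (SE 0.10, adjusted p = 0.00125).

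Gene lists of 8 pathways and functions were set against the same stages, using only list genes outside the 35. These lists were written with earlier results of these data known, and some of their genes were already known to move. Of 14 tested target genes of the YAP, TAZ and TEAD factors, which respond to cell shape and to which Myof and Gadd45a belong, 11 fell in differentiated cells and 0 rose in edgeR, with a median log2 change of -1.41. At an unadjusted p under 0.05 in edgeR 1 rose, DESeq2 called 0, and edgeR called 1 without undifferentiated replicate 1 or differentiated replicate 2. After adjustment 7 of the 11 rose again after withdrawal. Axl, a receptor kinase, went from 363 to 531 CPM to 69.7 to 111 and back to 324 to 417, while Tgfb2 fell from 13.0 to 14.8 CPM to 2.43 to 3.94 and was at 3.73 to 5.42 after withdrawal. Of 17 cytoskeletal targets of SRF and MRTF, 11 fell and 2 rose under dbcAMP, with a median of -0.72, and 7 fell and then rose. Zyxin (Zyx), of focal adhesions, fell by 2.57 log2 units (SE 0.10, edgeR adjusted p = 9.06e-09) and filamin A (Flna) by 1.67 (SE 0.12, adjusted p = 8.13e-07), and both were called higher again after withdrawal, by 1.17 and 1.08.

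AP-1 factors other than Jun did not share the fall of Atf3 as a group. Of 9 tested, 3 fell and 3 rose under dbcAMP, and the median log2 change was 0.08. After withdrawal 4 were lower and 2 higher than in differentiated cells, or 2 lower without differentiated replicate 2. Fosl2 fell by 4.01 log2 units (SE 0.26, edgeR adjusted p = 4.22e-07), from 143 to 232 CPM to 7.88 to 16.4, and Fos rose by 1.59 (SE 0.35, adjusted p = 0.00269). Of 18 feedback and target genes of the ERK pathway, 12 rose and 2 fell under dbcAMP, with a median change of 1.91. After withdrawal 15 of the 18 were lower than in differentiated cells, among them Spry1, Spry4 and Egr1, which had not passed as higher under dbcAMP. Dusp4, an ERK phosphatase, rose from 0.806 to 8.18 CPM to 244 to 316 CPM, and Ccnd1, cyclin D1, rose by 3.99 log2 units (SE 0.33, edgeR adjusted p = 2.21e-06). None of the 35 genes is on that list.

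Of 20 growth factor ligands outside Btc and Pdgfb, 12 fell and 7 rose, with a median of -1.2, and 8 fell and then rose. Bdnf, a neurotrophin, fell by 4.88 (SE 0.23, edgeR adjusted p = 4.21e-08), and Fgf5 went from 144 to 220 CPM to at most 1.23 CPM and back to 81.0 to 93.4 CPM. Of 20 repair and immature Schwann cell genes, 13 fell and 5 rose, with a median of -1.02, and 12 fell and then rose. The number that rose was 3 without undifferentiated replicate 1, undifferentiated replicate 2 or differentiated replicate 3. Gap43, a growth cone protein, went from 744 to 866 CPM to at most 0.442 CPM and was at 120 to 164 CPM after withdrawal. Of 9 chemokines and cytokines 4 fell and 2 rose, with a median of -0.997, and of 25 matrix genes 11 fell and 7 rose, with a median of -0.36. In these lists 3 and 10 genes fell and then rose. Cxcl12 fell by 3.85 log2 units (SE 0.31, edgeR adjusted p = 1.98e-06) and Ccl2 rose by 4.25 (SE 0.39, adjusted p = 4.69e-06). Serpine2 and Tnc fell by 5.79 and 5.56 (edgeR adjusted p = 2.88e-09 and 2.75e-08). Over all 8 lists, with each gene counted once, 63 of 128 fell and 38 rose under dbcAMP and 46 fell and then rose. Of the 10337 genes tested outside the 35, 2858 fell, 3286 rose and 1903 fell and then rose. The median log2 change under dbcAMP was -0.50 over the lists and 0.05 over those genes. Of the 5 genes in the lists among the 35, Btc and Myof had all their dedifferentiated libraries below the undifferentiated ones, and Atf3, Gadd45a and Pdgfb did not.

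**Figure D4:**
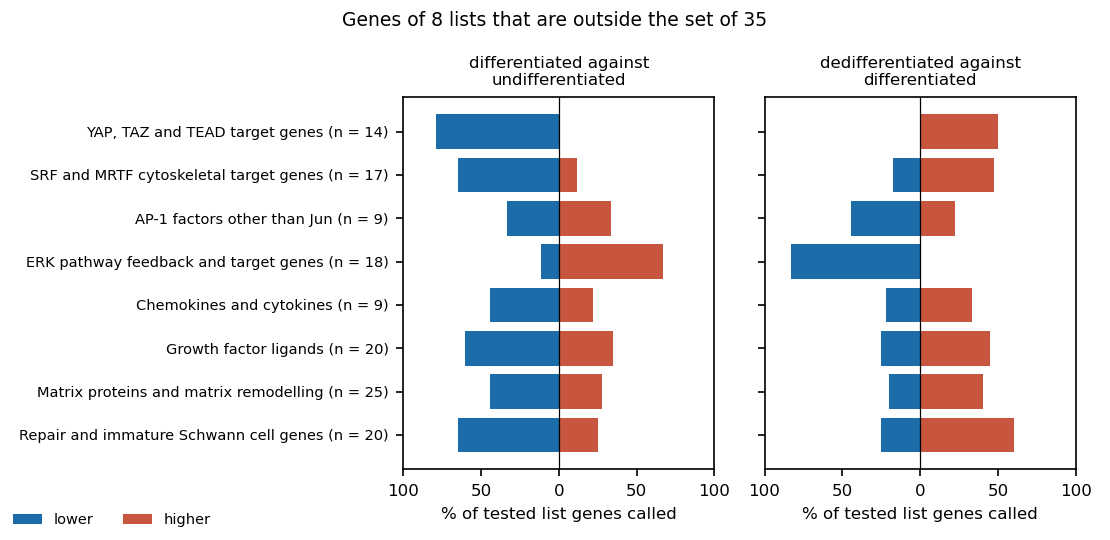
Percent of the tested genes of 8 lists, without the 35 genes, that were called lower (blue, to the left) or higher (red, to the right) in edgeR in 2 contrasts of cell mRNA, with the number tested beside each name. Among YAP, TAZ and TEAD targets 11 of 14 were lower under dbcAMP, and among ERK pathway genes 12 of 18 were higher.

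Promoters of the set were read from RefSeq sequence of build GRCr8, as windows of 300 bases with 250 before and 50 after the annotated start. Windows were found for 25 of the 35 genes. Of these 25, 4 (Gadd45a, Myo5b, P4ha3 and Relt) held the short CRE core TGACG on either strand, which is also contained in the full CRE TGACGTCA. The share of 16.0% stood beside 21.2% of all 33469 windows and 33.1% of the 8353 windows of genes that passed the count filter, as all 35 did. No window of the set held the full site, which 1.83% of all windows and 3.45% of those of filtered genes held. The next shares are given in the same order, for the set, all windows and filtered genes. The AP-1 site TGANTCA was in 1 window (4.0%, beside 7.33% and 4.65%) and the TEAD site GGAATG in 2 (8.0%, beside 14.2% and 11.0%). The E-box CACGTG was in 1 (4.0%, beside 6.42% and 9.29%) and TATAAA in 1 (4.0%, beside 14.2% and 6.09%). Neither a CArG box nor an NF-kB site was found in the 25, while 1.64% and 4.18% of all windows held them, and 1.17% and 4.92% of those of filtered genes. A match is a string of letters and not a shown binding site.

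The windows of Emp1, Gadd45a and S100a4 are printed because their matches differ most in kind: Emp1 with both AP-1 matches and a TEAD match, Gadd45a with a short CRE core, and S100a4 with a TATA box. Capitals mark these matches, and sequences run 5′ to 3′ on the strand of the gene, with the start of transcription after 250 bases.
Emp1 (chr4:169943980-169944279, plus strand): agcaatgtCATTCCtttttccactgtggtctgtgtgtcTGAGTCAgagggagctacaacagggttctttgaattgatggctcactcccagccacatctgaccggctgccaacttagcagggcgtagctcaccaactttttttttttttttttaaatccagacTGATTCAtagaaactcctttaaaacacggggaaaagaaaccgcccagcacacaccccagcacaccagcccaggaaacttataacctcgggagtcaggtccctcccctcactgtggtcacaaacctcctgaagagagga
Gadd45a (chr4:97486750-97487049, minus strand): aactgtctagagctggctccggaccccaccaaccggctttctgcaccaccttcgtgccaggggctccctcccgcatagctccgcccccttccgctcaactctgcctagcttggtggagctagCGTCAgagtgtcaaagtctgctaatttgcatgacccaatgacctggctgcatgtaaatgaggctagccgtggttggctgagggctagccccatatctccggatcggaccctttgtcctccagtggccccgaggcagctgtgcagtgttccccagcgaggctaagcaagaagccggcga
S100a4 (chr2:178388279-178388578, plus strand): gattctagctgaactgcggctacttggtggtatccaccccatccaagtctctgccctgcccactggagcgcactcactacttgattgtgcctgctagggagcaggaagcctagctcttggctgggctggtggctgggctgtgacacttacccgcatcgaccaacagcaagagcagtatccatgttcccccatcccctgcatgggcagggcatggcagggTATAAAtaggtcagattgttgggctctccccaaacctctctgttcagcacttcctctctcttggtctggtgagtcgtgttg
The AP-1 matches of Emp1 begin 212 and 88 bases before the start, and its TEAD match 242 before, on the other strand. The CRE core of Gadd45a begins 128 bases before, on the other strand, and the TATA box of S100a4 31 bases before.

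Of the 35 genes, 2 contain miRNA genes, and EV miRNA libraries gave a readout that the rule did not use. Gabre contains Mir224 on its own strand, and Dnm3 contains Mir199a2 and Mir214 on the opposite strand and Mir3120 on its own. Of 7 entries found in the EV miRNA table, 3 had enough counts to be tested. The 2 mature sequences among these are shown from RefSeq with the seed, bases 2 to 8, in capitals, and they do not share it.
miR-224-5p (chrX:155107183-155107204, minus strand, build GRCr8): cAAGUCACuagugguuccguuu
miR-199a-3p (chr13:77116294-77116315, plus strand, build GRCr8): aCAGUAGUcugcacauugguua

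In the cells Gabre had 0.645, 11.6 and 12.3 CPM at the undifferentiated stage, 0.0737, 0.309 and 0.185 under dbcAMP and 1.70, 9.15 and 8.27 after withdrawal. Replicate 1 was low at every stage, and the undifferentiated SD of 6.55 CPM was close to the mean of 8.19. In EVs miR-224-5p had 85.6, 676 and 603 CPM of miRNA counts from undifferentiated cells, 0, 135 and 141 from differentiated cells and 66.3, 258 and 101 from dedifferentiated cells. Replicate 1 was again the lowest at each stage, with 7, 0 and 6 counts, and its differentiated library could have shown 18.6 CPM at 3 counts. The log2 change was -2.22 (SE 1.11, edgeR adjusted p = 0.565) in differentiated against undifferentiated EVs and 0.58 (adjusted p = 0.808) after withdrawal. The differentiated value was below the undifferentiated one in all 3 replicate numbers, the ranges overlapped, and the change did not pass the adjusted threshold. Same-numbered EV libraries were not taken as paired (correlations of 0.161, -0.14 and 0.156 between these stages), so the order within numbers is a description only. No entry of the 361 tested was called in the first contrast (0% lower and 0% higher), and 0.277% were lower and 2.77% higher in the second. At an unadjusted edgeR p under 0.05 the first contrast had 7 entries lower and 22 higher, none of them among the 3 tested here, and DESeq2 called 1 lower and 4 higher. Without the filter on low counts the first change was -2.40 with an edgeR adjusted p = 0.00682, while the other alternatives gave 0.0582 to 0.938. The mir-224 hairpin entry changed by -1.31 (edgeR adjusted p = 0.629) and 1.28 (adjusted p = 0.395).

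The transcript of Dnm3 itself fell 9.54-fold. The miR-199a-3p sequence, found on its other strand, had 465, 365 and 355 CPM in undifferentiated EVs, 248, 415 and 472 in differentiated and 861, 484 and 911 in dedifferentiated EVs. The log2 change under dbcAMP was 0.10 (SE 0.40, edgeR adjusted p = 0.98), and the undifferentiated and differentiated values overlapped. After withdrawal it stood 0.94 above undifferentiated EVs (SE 0.40, edgeR adjusted p = 0.17), higher in all 3 libraries but short of the adjusted threshold, which 3.05% of entries passed as lower and 4.43% as higher. How the counts used strand is not given in the sources used here. Only miRNA genes inside or next to the genes of the set were searched. Whether genes elsewhere give the same mature sequence was not examined, so these EV counts are not assigned to the copy in Dnm3. No gene of the set was among the 7241 rows of the EV lncRNA table.

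**Figure D5:**
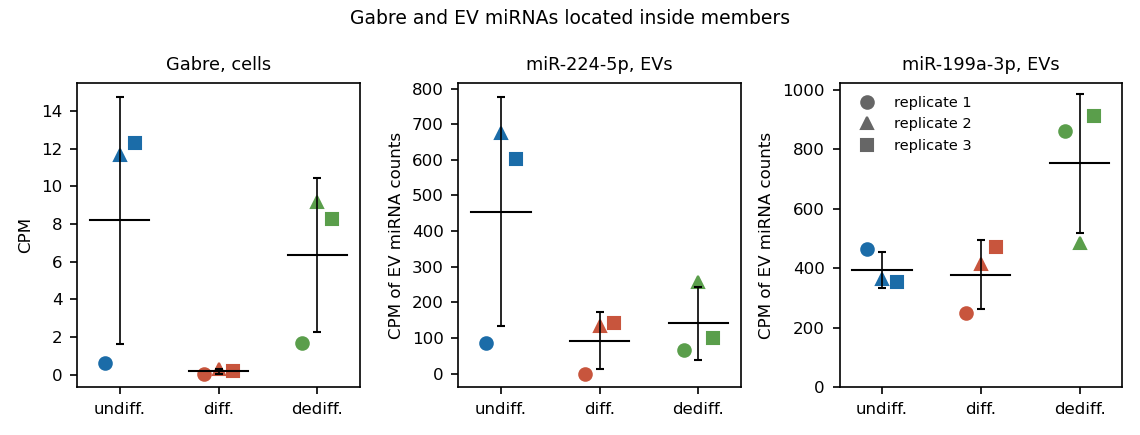
CPM of Gabre in cells and of miR-224-5p and miR-199a-3p in EVs by stage, with 1 point for each library, the mean as a line and the SD as a bar (n = 3), and replicates by symbol. Gabre and miR-224-5p are lowest in replicate 1 at every stage, and miR-199a-3p shows no fall in the mean under dbcAMP that exceeds its SD.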

How the data were processed

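Messenger RNA of rat Schwann cells was sequenced from directional libraries made with 10 ng of RNA, per the labels, and EV miRNA from libraries made with about 5 ng. The deposited mRNA table holds estimated counts per gene, 1.15% of them fractional, and the authors' miRNA table holds raw counts as deposited. The submitters' processing notes name Salmon, STAR, HISAT2 and DESeq2 1.26.0 among other tools, with no role. Genome build and annotation are not given in the sources used here.

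CPM was computed from column totals. Estimated counts were rounded and tested with edgeR 4.0.16 in R 4.3.3 (quasi-likelihood, TMM, filterByExpr with a minimum count of 10, all 9 libraries of an assay, no covariate), with Benjamini-Hochberg adjusted p-values over all features and a threshold of 0.05. This kept 10372 of 17315 genes and 361 of 965 miRNA entries. EV miRNA libraries held 81807 to 474965 counts, with 3 counts at 6.32 to 36.7 CPM. The floors cover counting error only. P-values measure the spread between these libraries. The fit was tested on simulated counts with known changes. Replicate numbers come from the sample titles, and mRNA column names carry a suffix that disagrees with them. Deviations from stage means of same-numbered mRNA libraries correlated at 0.288 to 0.327 between differentiated and undifferentiated cells, all 3 pairs above 0.1. The numbers were therefore taken to pair these samples, from the data and not from a stated design. At every stage replicates 1 and 2 shared a sequencing project and replicate 3 had another. Pairing and project cannot be told apart by these correlations. Names were matched to a RefSeq table of GRCr8, which held all 35 genes, 1 under another symbol.

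The 35 genes, the lists, the alternatives and the naming rule were chosen with earlier results of these data known. The rule named up to 6 genes of largest mean CPM in each functional group, genes on a list, those nearest the limits, the 5 largest falls and the 5 largest returns, and, outside the 35, the 2 genes of smallest p in each list. Gabre was added for the miRNA inside it. The values of 1 of the 35 genes are not reported here, and it is counted in the totals. Alternatives were other scalings, constants, limits and filters, DESeq2 1.42.0, the replicate block, the sequencing project as a covariate, and leaving out libraries.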

Additional observations from a re-analysis of the deposited data

How the results depend on the processing

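The number of genes that met the rule, 35, was 16 with 5 CPM added in place of 1, 72 with a fall of 2 or more, 14 with a fall of 3 or more, 23 with a deficit of at most 0.25 and 92 with a deficit of at most 1. With 0.25 CPM added it was 50, with 34 of the 35 among them. It was 29 to 42 without 1 library or 1 replicate number, 31 with TMM and 29 with DESeq2 size factors. The sequencing project of replicate 3 alone gave 29. Of the 35, 21 met the rule under each of the 9 omissions of 1 library. The median fall of 2.92 was 3.21 with 0.25 CPM and 2.30 with 5 CPM added, and 2.86 to 2.96 without 1 replicate number. The median difference after withdrawal of -0.14 was -0.21 with DESeq2 size factors.

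Same-numbered libraries were taken as paired in cell mRNA between differentiated and undifferentiated cells alone, where the block changed no call of a named gene and moved no count over a list or all genes past 1.5 times. In the other contrasts not every pair's correlation passed 0.1 (lowest 0.0842 and 0.0495). With the replicate block, 6325, 5031 and 3256 genes were called in place of 6179, 4809 and 3045. ERK genes called higher after withdrawal went from 0 to 1, and the mir-224 change between outer stages turned from -0.03 to 0.17. With library size alone, 1 YAP target was called higher under dbcAMP in place of 0, and the share of higher calls between the outer stages was 62.6% in place of 54.7%.

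Leaving out 1 library gave 0 to 1 YAP targets higher under dbcAMP (1 without undifferentiated replicate 1 or differentiated replicate 2) and 0 to 1 lower after withdrawal. It gave 0 to 1 ERK genes higher and 2 to 5 AP-1 genes lower after withdrawal (4 with all libraries). Differentiated replicate 2 set these 3 extremes, and without it Fos lost its call after withdrawal (edgeR adjusted p = 0.0501, and 0.00201 to 0.0461 under the others). Growth factors lower after withdrawal numbered 3 to 6 (5 with all, 3 without differentiated replicate 1). Repair genes higher under dbcAMP numbered 3 to 4 (5 with all), with 3 without undifferentiated replicate 1 or 2 or differentiated replicate 3. In EVs the omissions gave -0.61 to 0.00765 for mir-224 between outer stages, -0.43 to 0.89 for miR-224-5p after withdrawal and -0.24 to 0.32 for miR-199a-3p under dbcAMP. Without the count filter, miR-224-5p was called lower in differentiated (-2.40, edgeR adjusted p = 0.00682) and dedifferentiated EVs (-1.90, adjusted p = 0.0341), where the other alternatives gave 0.0582 to 0.938 and 0.137 to 0.604, and miR-199a-3p turned to -0.0575 under dbcAMP. The E-box share of 4.0% was 0% in the 250 bases before the start. The cause of these changes was not tested. The other counts over lists and relatives stayed within 1.5 times, and the named genes tested other than Fos and Sox8 (whose rise after withdrawal was also lost with the sequencing project as a covariate, edgeR adjusted p = 0.0551) kept their direction and side of the threshold, under the alternatives run. Low counts in EVs limit the miRNA results.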

Other observations

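The pathway lists held 5 of the 35 genes (14.3%) and 14 of the 153 genes that fell as far but stayed low (9.15%), beside 0.959% of all rows of the table. The lists were written with earlier results of these data known. All rows also include genes that did not pass the count filter, which all 35 passed. The difference in shares was not tested, and nothing is read from it.

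Taken 1 replicate number at a time, both limits of the rule were met by 18 of the 35 genes in replicate 1, by 26 in replicate 2 and by 26 in replicate 3. A fall of 2 or more was seen for 31, 34 and 35 of them. The undifferentiated SD exceeded 50% of the mean for 3 genes, Gabre, Ldb2 and Klf2, and had a median of 11.8% of the mean over the set.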
